A study of Homo sapiens with 4 samples.

Results

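The E2F and DP genes encode the transcription factors that link the retinoblastoma pathway to the cell cycle. The group held 10 genes of 17144 that the array's annotation names: the activators E2F1, E2F2 and E2F3, the repressors E2F4, E2F5 and E2F6, the atypical members E2F7 and E2F8, and the dimerization partners TFDP1 and TFDP2. They were taken by gene family, and where a gene had several probe sets the one with the highest mean over the 4 arrays stood for it. All 10 were measured above the level that was used as a floor, a mean of 3.96 on the log2 scale.

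The cells were WM35, an established human line of radial phase melanoma, and every result rests on this 1 line. Cultures in serum-containing medium were given C646 (20 µM) or, as vehicle, DMSO (0.2%) for 6 h or 24 h. C646 inhibits the histone acetyltransferases p300 and CBP, and the study measured expression when that activity is blocked. Each of the 4 combinations (DMSO 6 h, C646 6 h, DMSO 24 h, C646 24 h) was measured on 1 exon array, so no difference between arrays carries a replicate check.

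An E2F protein binds DNA as a dimer with a DP protein, apart from the atypical members, which need no DP partner. In resting cells the pocket proteins RB1, RBL1 and RBL2 hold E2Fs in a repressing state. When cyclin-dependent kinases phosphorylate the pocket proteins, the activators drive genes for DNA replication. E2F7 and E2F8 then shut these genes down again later in S phase, and E2F6 represses without pocket proteins as part of a Polycomb complex. Several E2F genes are known to be E2F targets themselves, and p300 and CBP are known coactivators of E2F1.

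The promoters of some members carry the letters that E2Fs recognise, and those of 5 members are shown because the members differed in them. RefSeq promoters (GRCh38.p14) covered 8 of the 10 genes, and E2F5 and E2F8 were not among them. The search looked in the 250 bases before and 50 after each start, on both strands, for cores of 7 letters. The first core was TTCCCGC. The next was TTGGCGC. Another was TTCGCGC. The last was TTGCCGC. The core TTGGCGC can overlap a CCAAT box read on the other strand. Of all 35116 promoters in the table, each counted singly, 13.0% held at least 1 core and 1.77% at least 2. Counted by gene, on the start with most cores, the share was larger. Of 8664 named genes above the floor with a promoter, 1812 held 1 core and 323 held 2 or more. The 200 bases before the start follow, 5′ to 3′ on the gene's own strand, with the cores in capitals.
E2F1, chr20:33686386-33686585, minus strand: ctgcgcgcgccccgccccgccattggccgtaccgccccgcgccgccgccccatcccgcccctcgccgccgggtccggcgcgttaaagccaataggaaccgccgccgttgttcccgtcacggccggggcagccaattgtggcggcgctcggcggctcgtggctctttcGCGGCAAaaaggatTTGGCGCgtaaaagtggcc
E2F2, chr1:23531234-23531433, minus strand: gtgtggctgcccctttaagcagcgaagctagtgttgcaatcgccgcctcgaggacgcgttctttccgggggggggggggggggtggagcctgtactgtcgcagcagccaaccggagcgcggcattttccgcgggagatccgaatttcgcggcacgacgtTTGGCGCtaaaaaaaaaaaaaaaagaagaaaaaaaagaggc
E2F3, chr6:20401679-20401878, plus strand: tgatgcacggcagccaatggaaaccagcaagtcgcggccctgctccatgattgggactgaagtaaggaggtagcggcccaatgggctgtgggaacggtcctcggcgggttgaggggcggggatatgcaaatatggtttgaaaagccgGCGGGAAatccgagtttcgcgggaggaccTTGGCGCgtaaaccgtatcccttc
E2F7, chr12:77065570-77065769, minus strand: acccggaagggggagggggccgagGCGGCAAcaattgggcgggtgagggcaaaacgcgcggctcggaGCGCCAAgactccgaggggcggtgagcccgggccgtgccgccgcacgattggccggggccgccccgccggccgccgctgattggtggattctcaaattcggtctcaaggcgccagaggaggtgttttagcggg
E2F4, chr16:67191955-67192154, plus strand: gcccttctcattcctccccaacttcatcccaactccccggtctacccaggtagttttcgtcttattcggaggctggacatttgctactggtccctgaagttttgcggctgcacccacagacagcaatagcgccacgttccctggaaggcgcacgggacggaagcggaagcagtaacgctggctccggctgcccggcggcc

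E2F1, E2F3 and E2F7 held 2 cores each, E2F2, E2F6 and TFDP1 held 1 each, and E2F4 and TFDP2 held none. In E2F1 they began 33 and 19 bases before the start, in E2F3 53 and 24 bases before, in E2F2 41 bases before and in E2F7 176 and 133 bases before. In TFDP1 the core began 120 bases before the start, and in E2F6 at base 15 after it. E2F3 has a second start in the table whose promoter held no core. CCAAT boxes (the letters CCAAT, both strands) numbered 3 in E2F1 and 4 each in E2F3 and E2F7, and 3.26% of all promoters held at least 3. A match is a description of the letters in this window and not a measured binding site.

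After 24 h the activators E2F1 and E2F2 and both atypical members were at least 2-fold lower with C646. The activator E2F3, the repressors E2F4, E2F5 and E2F6 and both dimerization partners were not. E2F8 differed by -3.28, E2F7 by -1.65, E2F1 by -1.57 and E2F2 by -1.01 on the log2 scale. The activator E2F3 differed by -0.48, and the repressors E2F4 by -0.00085, E2F5 by 0.47 and E2F6 by -0.68. Thus 4 of the 10 genes were at least 2-fold lower and 0 at least 2-fold higher. Over all 16579 probe sets kept, 2.5% were at least 2-fold lower and 1.14% at least 2-fold higher. At a threshold of 1.5-fold, 6 of the 10 were lower, E2F6 and TFDP1 being added. The share of all probe sets at least 1.5-fold lower was not counted. It was more than the 4.32% that had a lower difference than E2F6, since E2F6 itself lies past 1.5-fold. E2F6 and TFDP1 both rest on probe sets placed on another chromosome. On the probe set of the gene's own chromosome neither E2F6 (-0.50) nor TFDP1 (-0.41) reached 1.5-fold. The median over the 10 genes was -0.73, and over all probe sets kept it was 0.030. In a bulk culture, fewer cells that express a gene and less of its RNA per cell cannot be told apart.

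**Figure D1:**
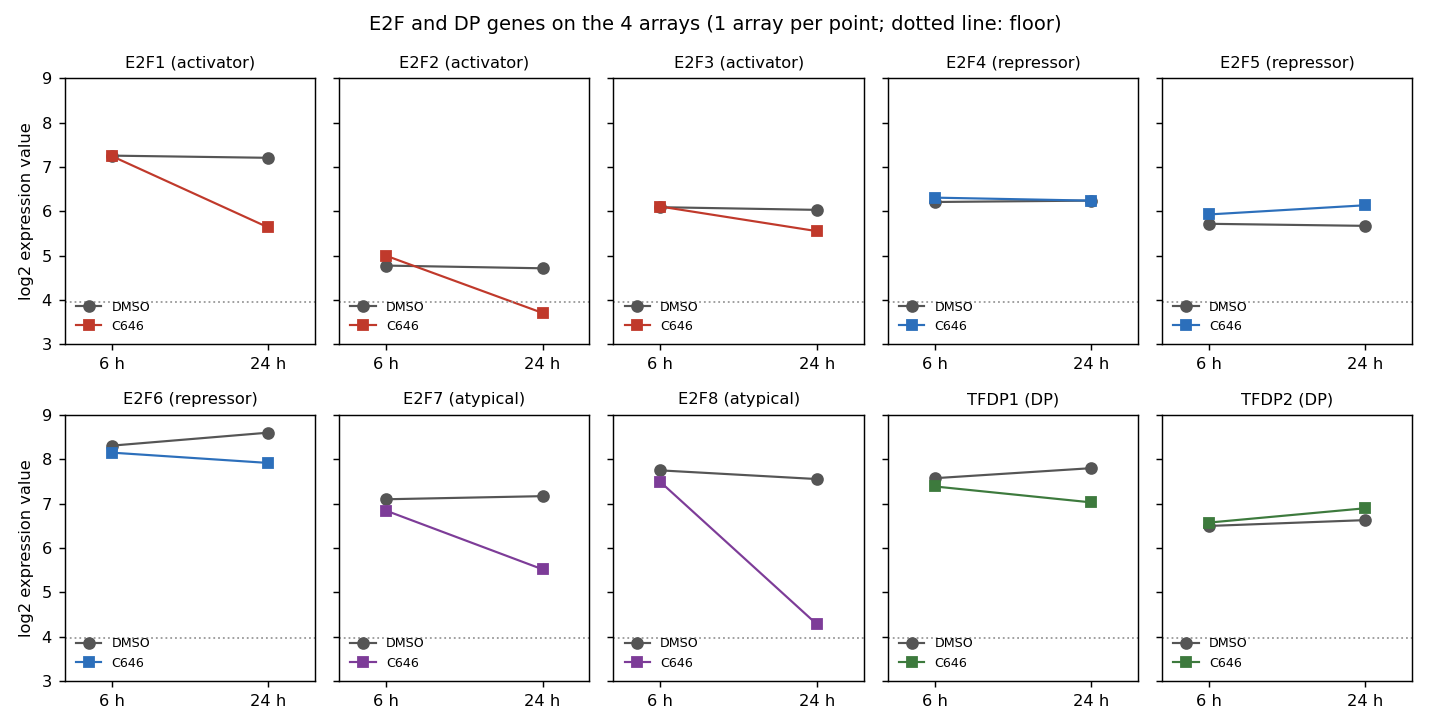
Log2 expression value of the 10 genes on each of the 4 arrays, by hours of exposure, with DMSO as circles and C646 as squares. Each point is 1 array and the dotted line is the floor of 3.96. The C646 array of 24 h stands below the other 3 in 7 of the 10 panels and above them in 2. The share of all probe sets where it stands outside the other 3 was not counted. Across all probe sets this array also differed most from the rest, with correlations of 0.976 to 0.979.

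At 6 h no member differed by 2-fold. The counts were 0 of 10 lower and 0 of 10 higher, where 0.115% and 0.127% of all probe sets kept were. The differences ran from -0.26 for E2F8 to 0.22 for E2F2, with 5 genes below 0 and 5 above. Both atypical members were at the lower end, with E2F7 also at -0.26, and 8.63% of probe sets had a lower difference than E2F8 and 8.88% than E2F7. The vehicle arrays give the size of change without the compound. Between DMSO at 6 h and at 24 h the 10 genes differed by -0.20 to 0.29, and 0 were 2-fold lower or higher, against 0.0905% and 0.0543% of probe sets. On these probe sets the differences at 6 h therefore had a range much like that between the vehicle arrays. The upper end between the vehicle arrays, 0.29, was E2F6, followed by TFDP1 at 0.23, both on probe sets placed on another chromosome. On the probe sets of their own chromosomes these differences were 0.040 and -0.032, and TFDP2 at 0.13 was then the highest.

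E2F1, the founding activator of the family and an RB1-bound driver of S phase entry (probe set 3903146, chromosome 20), read 7.26 in DMSO and 7.25 in C646 at 6 h. At 24 h it read 7.21 in DMSO and 5.64 in C646. The 3 other arrays lay within 0.049 of each other, and the C646 array of 24 h stood apart below them. The difference from its vehicle was -1.57, or 33.7% of the DMSO level, and 200 of 16579 probe sets had a lower difference.

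E2F2, an activator with a role close to that of E2F1 (probe set 2401448, chromosome 1), read 4.78 and 5.00 at 6 h in DMSO and C646, and 4.71 and 3.71 at 24 h. It was the highest of the family at 6 h, with a difference of 0.22, and at 24 h it was 2.01-fold lower. The value of 3.71 lies below the floor of 3.96, and E2F2 passed 2-fold only narrowly.

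E2F3, the remaining activator (probe set 2897576, chromosome 6), read 6.09 and 6.11 at 6 h and 6.03 and 5.55 at 24 h. Its difference of -0.48 at 24 h was smaller than those of E2F1 and E2F2, although the C646 array was again below the other 3, which spanned 0.075. The activator class had a median of 0.015 at 6 h and -1.01 at 24 h.

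E2F4, the main repressor E2F of resting cells (probe set 3665288, chromosome 16), read 6.21 and 6.31 at 6 h and 6.24 in both treatments at 24 h. Its 4 values spanned 0.099, and it was the member whose C646 array of 24 h lay among the others. E2F5, the other repressor that binds pocket proteins (probe set 3105467), read 5.72 and 5.93 at 6 h and 5.67 and 6.14 at 24 h. Both C646 arrays of E2F5 were above both DMSO arrays, with differences of 0.21 and 0.47, and 1381 of 16579 probe sets had a higher difference at 24 h.

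E2F6, the Polycomb-associated repressor, read 8.31 and 8.15 at 6 h and 8.60 and 7.92 at 24 h. Its difference of -0.68 at 24 h was 1.61-fold. The vehicle itself was 0.29 higher at 24 h than at 6 h, and between the C646 arrays the difference was -0.23. The repressor class, with members on either side of 0, had medians of 0.099 and -0.00085. Without E2F6 the median at 24 h was 0.23.

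E2F7, an atypical repressor that binds DNA without DP (probe set 3463112, chromosome 12), read 7.10 and 6.84 at 6 h and 7.17 and 5.52 at 24 h. It was at 31.8% of the DMSO level after 24 h, close to E2F1 at 33.7%. E2F8, its closest relative (probe set 3365776, chromosome 11), read 7.75 and 7.49 at 6 h and 7.56 and 4.28 at 24 h. That was 10.3% of the DMSO level and 9.70-fold lower, and 11 of 16579 probe sets had a lower difference. With C646 at 24 h the value stood 0.32 above the floor. The atypical class, of 2 genes, had a median of -0.26 at 6 h and -2.46 at 24 h, against 0.015 and -1.01 for the activators. Taken singly, E2F7 (-1.65) was close to E2F1 (-1.57) at 24 h, and E2F2 differed by 0.22 at 6 h.

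TFDP1, the main DNA-binding partner of E2F1 to E2F6, read 7.58 and 7.39 at 6 h and 7.80 and 7.03 at 24 h. Its difference was -0.77 at 24 h, and here too the vehicle was higher at 24 h than at 6 h, by 0.23. TFDP2, the second partner (probe set 2698565, chromosome 3), read 6.50 and 6.57 at 6 h and 6.63 and 6.90 at 24 h. It was the only member besides E2F5 whose C646 array of 24 h was above the other 3, by a difference of 0.27 from its vehicle. The partners therefore lay on either side of 0 at 24 h, with a median of -0.25.

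**Figure D2:**
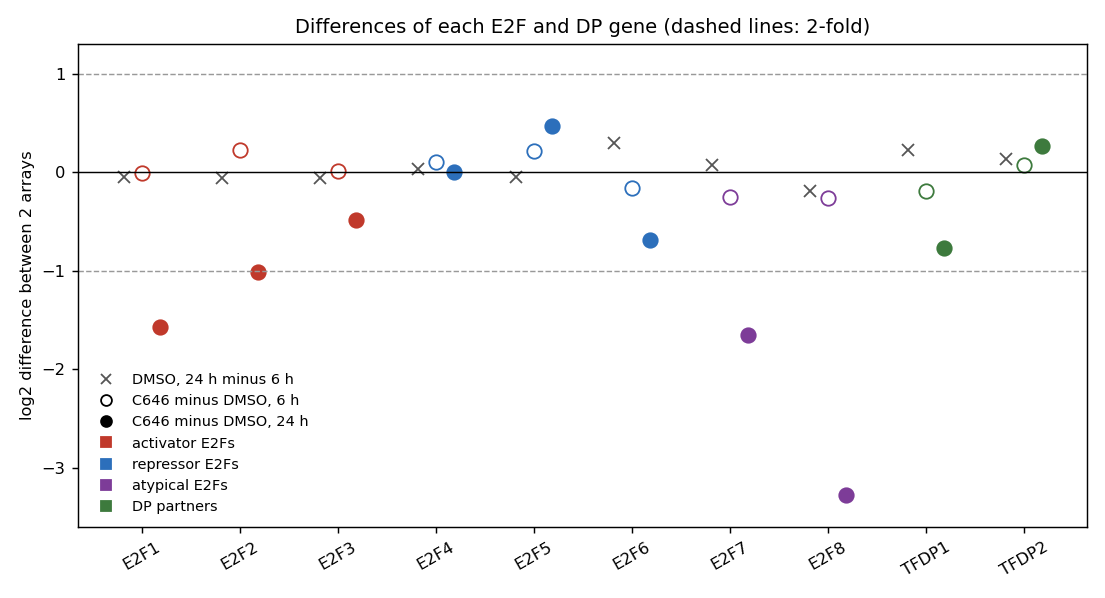
Log2 difference of each gene: DMSO at 24 h minus 6 h (crosses), C646 minus DMSO at 6 h (open circles) and at 24 h (filled circles), coloured by class, each from 1 array against 1 array. At 24 h E2F1, E2F2, E2F7 and E2F8 lie below the lower 2-fold line, while E2F5 and TFDP2 lie above 0.

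The order of the differences at 24 h, from the lowest, was E2F8, E2F7, E2F1, E2F2, TFDP1, E2F6, E2F3, E2F4, TFDP2 and E2F5. Neighbours in it such as E2F7 and E2F1, or TFDP1 and E2F6, lay closer than 0.17, the standard deviation over all probe sets kept of the difference between the vehicle arrays. Such neighbours cannot be ordered. The place of TFDP1 depends on its probe set, since at -0.41, the value among neighbours of its own chromosome, it would follow E2F3. Of the 6 genes with an E2F core in the promoter, the differences at 24 h were -1.65 for E2F7, -1.57 for E2F1, -1.01 for E2F2, -0.77 for TFDP1, -0.68 for E2F6 and -0.48 for E2F3. On the probe sets among neighbours of their own chromosomes, TFDP1 was at -0.41 and E2F6 at -0.50. The 2 without a core, E2F4 and TFDP2, were at -0.00085 and 0.27.

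Over all named genes kept that have a RefSeq promoter, the share at least 2-fold lower at 24 h went with the number of cores. It was 2.11% of 6529 genes with no core, 4.69% of 1812 with 1 core and 10.8% of 323 with 2 or more. The shares at least 2-fold higher were 0.965%, 0.773% and 0.929%. These are descriptions of 1 pair of arrays.

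**Figure D3:**
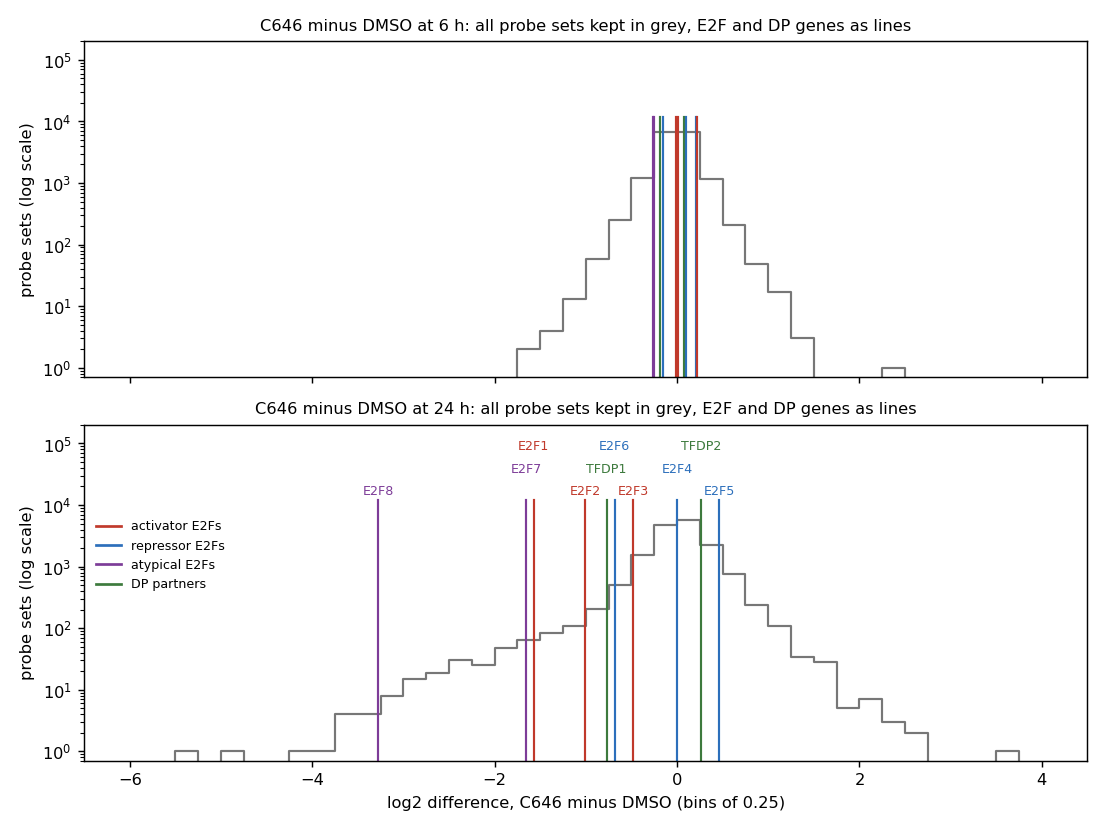
Number of probe sets (log axis) by log2 difference between C646 and DMSO in bins of 0.25, at 6 h above and at 24 h below, with the 10 genes as coloured lines. At 6 h all 10 lines stand in the centre, between -0.26 and 0.22, and at 24 h E2F8 stands far in the lower tail at -3.28.

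The probe sets behind E2F6, TFDP1 and E2F3 need a closer description, because these genes have processed copies elsewhere in the genome. Each probe set was placed by the chromosome most common among the genes of its neighbours in probe set number. E2F6 lies on chromosome 2, but 3 of its 4 probe sets have neighbours from chromosome 22, where RefSeq lists the pseudogenes E2F6P1, E2F6P2 and E2F6P3. The probe set used above (3953958) is among them. The 4 E2F6 probe sets differed by -0.50 (2540578, with chromosome 2 neighbours), -0.53, -0.60 and -0.68 at 24 h. They all pointed the same way, with the smallest difference in the gene's own place, where the vehicle arrays were 0.040 apart.

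TFDP1 lies on chromosome 13, but its only probe set of its own (3635029) has neighbours from chromosome 15, where RefSeq lists the pseudogene TFDP1P3. The probe set among chromosome 13 neighbours is annotated to both TFDP1 and TFDP3, a relative of the DP genes. It read 6.90 and 6.76 at 6 h and 6.87 and 6.46 at 24 h, a difference of -0.41 at 24 h in place of -0.77. E2F3 has a second probe set (3718640) with neighbours from chromosome 17, where E2F3P1 lies. It read 2.81 to 3.07 on the 4 arrays, under the floor, and differed by 0.21 at 24 h. The values of E2F6 and TFDP1 are thus uncertain in size, and whether their probe sets read the gene, a copy or both was not tested.

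**Figure D4:**
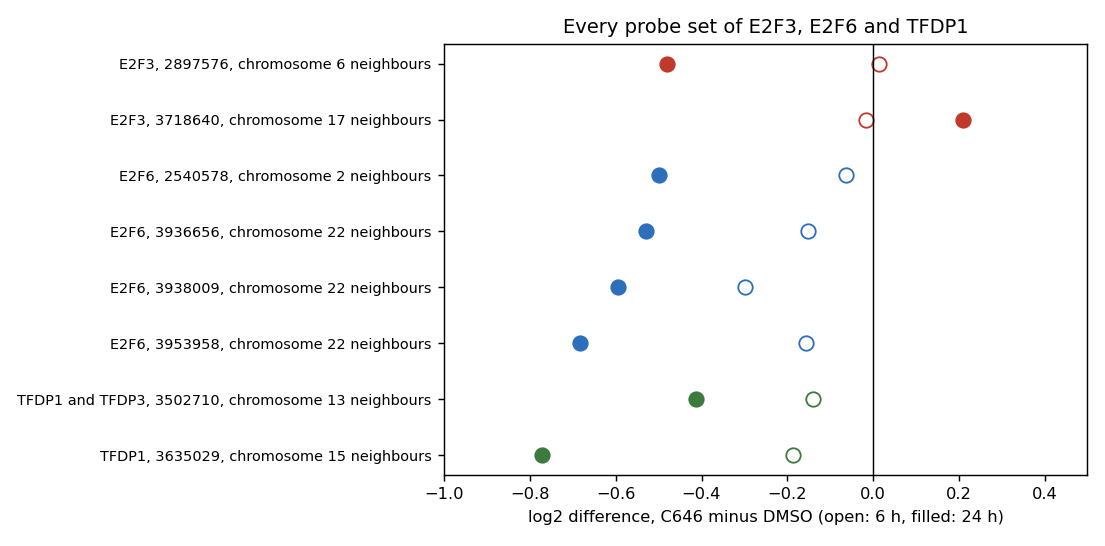
Log2 difference between C646 and DMSO for every probe set annotated to E2F3, E2F6 or TFDP1, at 6 h (open) and 24 h (filled), with the chromosome of the neighbouring probe sets. All 4 E2F6 probe sets lie between -0.50 and -0.68 at 24 h, while both for TFDP1 lie at -0.41 and -0.77.

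Some members had similar profiles over the 4 arrays. By the Euclidean distance between log2 values centred on each gene's mean, the closest pair was E2F6 and TFDP1 at 0.12, which are also the 2 genes read by probe sets with foreign neighbours. E2F5 and TFDP2 followed at 0.22, and E2F1 and E2F7 at 0.27. E2F8 lay far from every other member, at 1.58 from its relative E2F7. These are likenesses over 4 arrays.

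The same measure found the most similar genes outside the family among all named genes kept. Nearest to E2F1 were MAD2L1 of the spindle checkpoint at a distance of 0.061, GINS3 of the replicative helicase at 0.062 and the primase gene PRIM1 at 0.069. Nearest to E2F7 were TMPO, a nuclear lamina protein gene, at 0.090, the helicase gene MCM8 at 0.091 and SMC1A of cohesin at 0.097. Nearest to E2F8 were the linker histone gene H1-5 at 0.022, the phosphatase gene CDC25A at 0.062 and the kinesin gene KIFC1 at 0.16. Nearest to E2F2 were TLCD3A at 0.10, GINS4 at 0.11 and RIBC2 at 0.12. With 4 arrays many genes can share a profile.

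Genes around the family were taken from lists of pocket proteins, upstream kinases, partners and targets. Among the pocket proteins, RBL1 read 7.28 and 6.82 at 6 h and 7.10 and 5.38 at 24 h. RB1 read 6.39 and 6.22 at 6 h and 6.35 and 6.36 at 24 h. RBL1, itself known as an E2F target, was thus 2-fold lower at 24 h with a difference of -1.71, while RB1 differed by 0.012. RBL1 has another probe set under the floor, and with the mean of both it was no longer 2-fold lower and the median of the pocket proteins was -0.38 in place of -0.85. RBL2 had no probe set of its own.

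Of 10 G1 kinases, cyclins and inhibitors kept, 2 were at least 2-fold lower at 24 h and 0 higher, with a median of -0.16. The lower ones were the E-type cyclins CCNE2 at -3.67 and CCNE1 at -1.53, which are E2F targets too and stand in both lists. Cyclin D1 (CCND1) and p21 (CDKN1A) were on the other side of 0, at 0.45 and 0.85, and are named after their values were seen. Nearest to 0 were the inhibitor genes CDKN1C at 0.077 and CDKN2D at -0.15. Of 6 genes of the MuvB complex with MYBL2 and FOXM1, which work with E2F4 and pocket proteins in resting cells and with B-MYB in dividing ones, 3 were at least 2-fold lower. MYBL2 was at -1.87, LIN9 at -1.51 and FOXM1 at -1.08, while LIN52 was at -0.17 and RBBP4 at -0.28.

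E2F targets of the G1/S transition were lower throughout at 24 h. Of 35 genes kept, 29 were at least 2-fold lower and 0 higher, all 35 lay below 0, and the median was -1.68. Over all probe sets kept, 2.5% were at least 2-fold lower and 7453 of 16579 lay below 0. At 6 h the targets had a median of -0.11 and 28 of 35 lay below 0, where 8386 of 16579 probe sets did. The vehicle arrays gave a similar picture, with a median of -0.14 and 30 of 35 below 0. The lowest at 24 h were UHRF1 at -3.86, a maintenance factor of DNA methylation whose probe set has neighbours from another chromosome, CCNE2, CDC25A at -3.22 and the checkpoint mediator CLSPN at -2.84. Nearest to 0 were PCNA at -0.47, read by a probe set with foreign neighbours, and SLBP at -0.58. Of the 31 with a promoter in the table, 25 held at least 1 E2F core. Over all 8664 named genes kept with a promoter, 1812 held 1 core and 323 held 2 or more.

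Few genes of the other lists around the family were past 2-fold at 24 h. E2F targets of cell death had a median of -0.075 over 8 genes, with 1 at least 2-fold higher, the p53 target TP53INP1 at 1.11, and 0 lower. With the floor at the 60th percentile this median was 0.35, and at 1.5-fold 2 genes were lower and 2 higher. BCL2L11 was at 0.16 and PMAIP1 at -0.31. The 7 measured partners of E2F6 in its Polycomb complex had a median of -0.12, with none past 2-fold, and RYBP and L3MBTL2 were nearest to 0 at -0.089 and -0.12. The 12 transcriptional regulators that bind E2Fs had a median of -0.053, with none past 2-fold and CREBBP, which encodes CBP, at 0.016 beside ARID3A at 0.047. The 5 ubiquitin ligase genes that act on E2Fs had a median of -0.35, with 4 of 5 below 0. Of these, CDC20 was 2-fold lower at -1.67, and SKP1 and CUL1 were at 0.11 and -0.25. Of 6 germ line genes that E2F6 is known to keep silent, 5 had a mean under the floor. STAG3 differed by -0.0089, and by -0.32 with the mean of its probe sets.

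**Figure D5:**
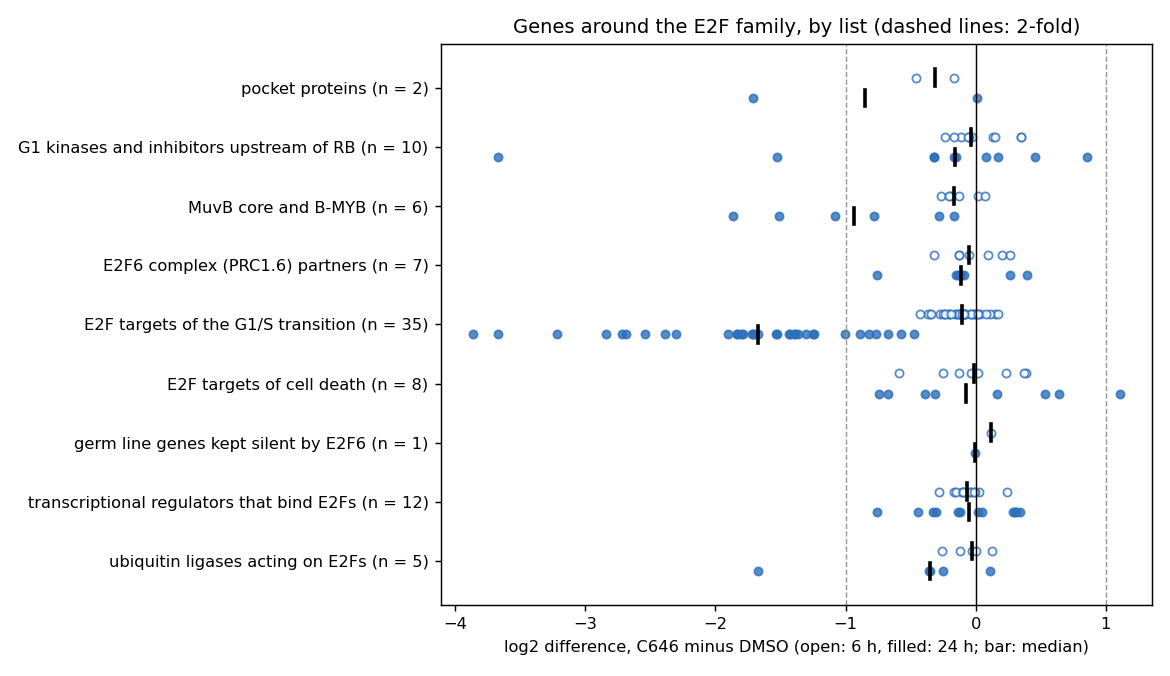
Log2 difference between C646 and DMSO for each gene of 9 lists around the E2F family, at 6 h (open) and 24 h (filled), with the median as a bar and n the genes kept. The G1/S targets spread from -3.86 to -0.47 at 24 h, while the cell death targets spread from -0.74 to 1.11.

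A treatment effect shared by both times was fitted with limma on all 4 arrays, with time as a term. It has 1 residual degree of freedom, and its error is the disagreement between 6 h and 24 h rather than a spread of cultures. None of the 10 genes passed an adjusted p of 0.05, and 0% of all probe sets did (0 of 16579, with 1828 at an unadjusted limma p under 0.05). E2F8 had an estimate of -1.77 ± 0.76 (SE, limma adjusted p = 0.455), E2F7 of -0.95 ± 0.36 (0.448), E2F1 of -0.79 ± 0.40 (0.495) and E2F5 of 0.34 ± 0.12 (0.448). Without the C646 array of 6 h, limma compared the later C646 array with the vehicle pair and no time term. There 6 of the 10 fell (E2F1, E2F2, E2F3, E2F7, E2F8 and TFDP1) and 1 rose (E2F5), where 6.9% of probe sets fell and 6.68% rose. Estimates were -3.38 ± 0.12 for E2F8, -1.62 ± 0.093 for E2F7, -1.60 ± 0.091 for E2F1 and 0.44 ± 0.088 for E2F5 (SE). E2F8 had the lowest limma adjusted p among them, 0.0029, and E2F5 the highest, 0.045, and E2F6 (0.093), TFDP2 (0.11) and E2F4 (0.92) did not pass. This fit takes its spread from the vehicle pair alone and assumes that the lone C646 array varies like it. TFDP1 and E2F6 entered the fit on probe sets with foreign neighbours. For TFDP1 the difference at 24 h was -0.77 there and -0.41 on the probe set shared with TFDP3.

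Across the whole table, the array medians lay between 4.39 and 4.41. Correlations across probe sets were 0.976 to 0.979 between the later C646 array and the rest, and 0.991 to 0.996 within the rest. Markers of the melanocyte lineage were present on all arrays, with 7 of 7 measured markers kept, and their median difference between C646 and DMSO was 0.29 at 6 h and 0.40 at 24 h. At 24 h 7 of 7 lay above 0 and 1 was at least 2-fold higher, S100B at 1.49, whose probe set has neighbours from another chromosome. Nearest to 0 were PMEL at 0.078 and TYRP1 at 0.15. Over all probe sets kept, 9126 of 16579 lay above 0 at 24 h. The vehicle itself was lower at 24 h than at 6 h in 7 of 7 markers, with a median of -0.18. Of other cell types, 0 of 3 endothelial, 0 of 3 leukocyte, 1 of 3 keratinocyte and 2 of 5 fibroblast markers reached the floor. Those were KRT10, COL1A1 and LUM, and KRT14 and DCN were under it.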

How the data were processed

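RNA from 4 WM35 cultures was measured on Affymetrix GeneChip Human Exon 1.0 ST arrays, 1 per group, per the labels. The deposited table holds log2 values for 27631 gene-level probe sets. Their range of 2.48 to 13.6 fits a log2 scale. Summarisation and normalization are not given in the sources used here, and array medians were nearly equal. The build hg19 is per the submitters' processing notes.

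Of the probe sets, 20429 have exactly 1 symbol, 4232 several and 2970 none in the platform annotation. Symbols were updated by Entrez identifier with RefSeq (GRCh38.p14), which matched 20362. Probe sets with a mean under the 40th percentile were set aside, leaving 16579. Differences between single arrays have no test, and the number of arrays limits the precision. The fit across all probe sets used limma 3.58.1 (trend, Benjamini-Hochberg) and was tested on simulated data with the same change at both times. That simulation does not cover a change present at 24 h and absent at 6 h. A probe set was placed by the 10 annotated neighbours on either side. All 10 members were named. Of each list, up to 4 genes past 2-fold at 24 h and the 2 nearest to 0 were named, and for each member past 2-fold the 3 nearest genes. Members and lists were chosen with earlier results of these data known. Alternatives were the mean of a gene's probe sets, quantile normalization, median centring, the mean of both DMSO arrays as control, other thresholds and floors, and leaving out each array.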

Additional observations from a re-analysis of the deposited data

Results flagged for a closer look

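With 1 array per group, a member is listed here when its difference between C646 and DMSO had opposite signs at 6 h and 24 h. The change between the times was not tested for any of them. E2F2 went from 0.22 at 6 h to -1.01 at 24 h, a change of -1.23. E2F3 went from 0.015 to -0.48, a change of -0.50. With the mean of its probe sets E2F3 was at -0.00054 at 6 h and would not be listed. E2F4 went from 0.099 to -0.00085, a change of -0.099, which is under the standard deviation of 0.17 between the vehicle arrays. With the mean of both DMSO arrays as control, E2F4 was at 0.015 at 24 h and would not be listed. With that control E2F1 was at 0.015 at 6 h and would be listed. The median of the activators changed by -1.02 between the times. That of the repressors, which is the value of E2F4 at both times, changed by -0.099.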

How the results depend on the processing

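The 4 genes at least 2-fold lower at 24 h were counted alike under quantile normalization, median centring and the mean of both DMSO arrays as control. Median centring could shift them little, since the array medians lay between 4.39 and 4.41. Each of these 4 genes has 1 probe set, with a mean above the floor. The mean of a gene's probe sets, the floor used here and probe sets of several symbols therefore could not change their values, and the count was also 4 there. With the floor at the 60th percentile the count was 3. At 1.5-fold it was 6, of which E2F6 and TFDP1 were lost on the probe set of their own chromosome. The share of all probe sets at least 1.5-fold lower was not counted, and was more than the 4.32% lower than E2F6. A value is said to have moved where it shifted by at least the standard deviation between the vehicle arrays, 0.17. Only 2 of the 10 members have more than 1 probe set of their own, so the mean of probe sets could not move the others. Median centring shifted all members alike at each time, for E2F1 at 24 h from -1.57 to -1.58. Of 84 member differences recomputed, with these included, 81 moved by less than 0.17. The exceptions were E2F3 at 24 h with the mean of its probe sets (-0.14), and E2F6 (-0.50) and TFDP1 (-0.41) on the probe set with neighbours of the gene's own chromosome, an alternative chosen after seeing the data. On that alternative the median of the dimerization partners at 24 h was -0.073. Without E2F6 the median of the repressors at 24 h was 0.23. RBL1 was not 2-fold lower at 24 h with the mean of its probe sets. In limma, leaving out 1 array each gave 0 to 6 members that fell and 0 to 1 that rose, with calls only without the C646 array of 6 h. No paired analysis was possible because the labels give no replicate numbers and each group has 1 array, but arrays of the same time share the time term of the limma fit. Values near the floor, such as E2F2 with C646 at 24 h, may understate a difference.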
